A study of Mus musculus with 22 samples.

Results

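Regulatory T cells (Tregs) of visceral fat that carry a knockout (KO) of Bmal1 were compared after 16 and after 4 weeks of high fat diet. The comparison takes 6 of the 22 libraries of the series, 3 per diet length, chosen by their labelled genotype, diet and age. All 6 came from male mice of the strain C57BL/6 Foxp3.Cre-YFP, sampled at zeitgeber time 0 (ZT0, lights on). These mice had eaten a lean diet for 14 weeks before the switch, so the mice with 4 weeks of high fat diet were 18 weeks old and those with 16 weeks were 30 weeks old. Diet length and age therefore changed together, and their effects cannot be told apart here. Cells were sorted for the yellow fluorescent protein (YFP) that is expressed with Cre from the Foxp3 gene, 1000 per library. The wild type (WT) mice carry Foxp3.Cre-YFP too. The labels name the genotype KO without giving the allele or the deleted exons. They do not say whether the replicates of a group came from separate mice, so p-values measure the spread between these libraries, which may be partly technical. The same 2 diet lengths in WT cells (3 libraries each, same ages) and KO cells on the lean diet (3 libraries, 18 weeks old) were used for reference.

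Tregs are CD4 T cells held in their suppressive state by the transcription factor Foxp3. Those of visceral fat accumulate with age in lean mice, depend on PPAR-gamma and on the interleukin 33 (IL-33) receptor ST2, and are known to dwindle in obesity. BMAL1, encoded by Arntl, pairs with CLOCK to drive the circadian clock and, through the REV-ERB repressors and ROR activators, a second loop that sets Npas2 and Arntl itself.

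Arntl, the targeted gene, was given at 84.2, 88.1 and 93.3 CPM (reads counted relative to library size, after scaling with TMM normalization factors) in the 4 week KO libraries and at 92.0, 91.4 and 83.3 CPM in the 16 week ones. Its total did not separate the groups (log2 fold change 0.01 ± 0.17 (SE), adjusted p = 0.994, edgeR), and because the deleted part is unknown the total checks nothing about the labels. Nr1d1, which encodes REV-ERB-alpha and is driven by BMAL1, lay at 0.663 to 4.30 CPM in the 6 KO libraries and at 16.1 to 33.3 CPM in the 6 WT libraries on high fat diet. Foxp3 lay at 567, 567 and 575 CPM after 4 weeks and at 412, 505 and 587 CPM after 16 weeks, with overlapping ranges (adjusted p = 0.490). The 6 KO libraries held 2514816 to 3001591 counts and detected 20614 to 23400 genes. A count of 3, taken as the floor of detection, corresponded to 0.993 to 1.16 CPM, which covers counting error only. Replicate 1 of the 16 week KO group stood apart in markers of other cells: stromal markers summed to 183 CPM there against 2.98 to 13.5 CPM in the other 5 KO libraries. Its weight is given beside the results it touches.

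Between 4 and 16 weeks of high fat diet, 192 of 11698 genes tested changed in KO Tregs (1.64%, adjusted p under 0.05, edgeR quasi-likelihood test with Benjamini-Hochberg adjustment). Of these, 146 fell (1.25%) and 46 rose (0.393%). The genes that fell included receptors and regulators typical of fat Tregs, S100, annexin and cytoskeletal genes, immediate early genes and genes of sterol synthesis. Of the 146, 53 belong to any gene list used here, beside 706 of the 11698 genes tested, so most of them are outside these themes. The lists and their members were chosen with earlier results of these data known. Counts of calls within a list therefore describe it and are no independent support for a theme. The median log2 fold change was -1.13 among those that fell and 1.29 among those that rose, beside a median of -0.00 over all genes tested, and 84 and 33 of them changed more than 2-fold. The CPM ranges of the 2 groups lay apart for all 192, beside 19.5% of all genes tested. Separate ranges of a called gene, where given below, therefore add nothing to its call. With scaling by library totals alone, the calls were 109 lower and 82 higher, so the split of 146 to 46 depends on the TMM scaling. The count rested on few libraries: it was 32 without replicate 1 of the 16 week group (25 lower and 7 higher), 62 and 67 without replicates 3 and 1 of the 4 week group, and 81 and 126 without replicates 3 and 2 of the 16 week group. In bulk RNA, fewer cells of a type and less RNA per cell cannot be told apart.

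**Figure D1:**
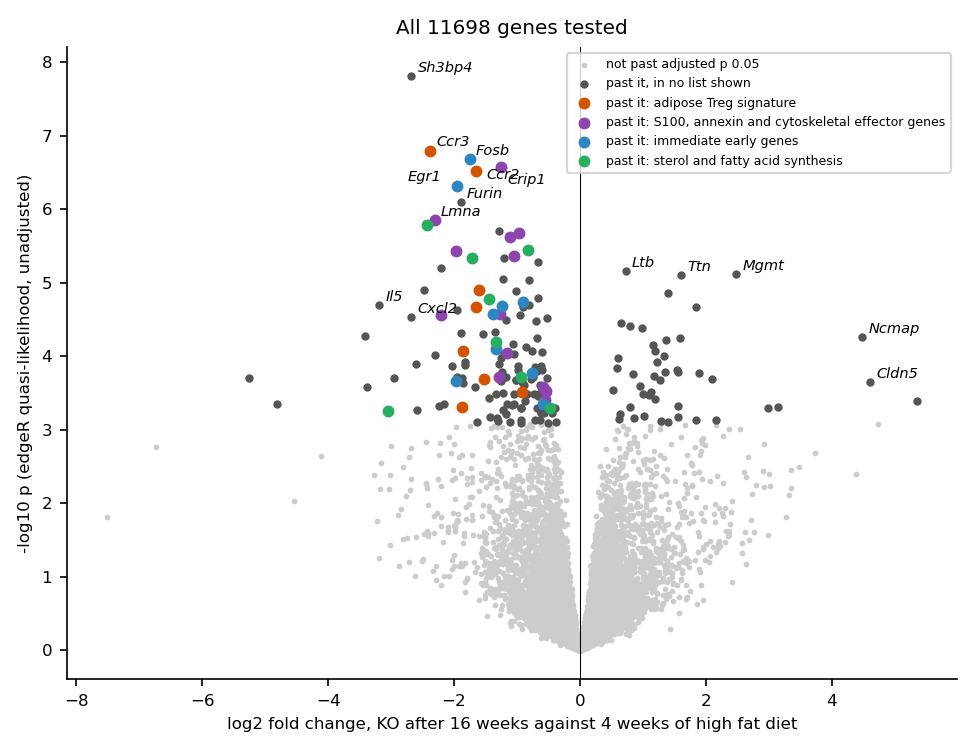
Each point is 1 of the 11698 genes tested in KO Tregs; the x axis is the log2 fold change of 16 against 4 weeks of high fat diet and the y axis is −log10 of the unadjusted p of the edgeR test. Genes past adjusted p 0.05 are dark or coloured by list, and more of them lie to the left (146) than to the right (46).

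Among genes of the adipose Treg signature, 8 of 25 tested fell, beside 1.25% of all genes tested, and none rose. The 8 were Ccr2, Ccr3, Il9r, Klrg1, Il1rl1, Ltb4r1, Pparg and Irf4. The list's median log2 fold change was -0.76 in KO cells, beside -0.09 in WT cells. The 3 libraries of the 16 week group all lay below the 3 of the 4 week group for 18 of the 25 members, beside 9.92% of all genes tested. They all lay above for 3 members, beside 9.55% of all genes tested, and 6 of the 25 had a positive log2 fold change. Gata3, which supports ST2 expression, lay at 2154, 1918 and 1684 CPM after 4 weeks and at 1058, 1373 and 1274 CPM after 16 weeks, ranges that do not overlap, but did not pass the test (log2 -0.64, adjusted p = 0.0810). Areg, the tissue repair ligand amphiregulin, differed by log2 -0.94 (adjusted p = 0.182), and Il10, the suppressive cytokine, by -0.63 (adjusted p = 0.607). Irf4, Gata3, Areg and Il10 were chosen for naming after their values were seen.

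The chemokine receptor genes of the signature fell with little spread within groups. Ccr3, the eotaxin receptor (chr9:124021972-124031689, plus strand, mm10), was at 192, 130 and 163 CPM after 4 weeks and at 24.2, 29.7 and 38.8 CPM after 16 weeks. The highest 16 week library was thus far below the lowest 4 week one, a 5.21-fold lower level (log2 -2.38 ± 0.30 (SE), adjusted p = 0.000701, edgeR). Ccr2, the receptor for monocyte chemoattractants (chr9:124101950-124113557, plus strand), was at 780, 793 and 806 CPM after 4 weeks and at 208, 269 and 277 CPM after 16 weeks. Each 4 week value exceeded every 16 week value, with a log2 fold change of -1.66 ± 0.22 (SE) and an adjusted p of 0.000701. Ccr3 and Ccr2 passed the test with each of the 6 libraries left out in turn, with adjusted p of at most 0.0139 and 0.0140. Ccr9, the gut homing receptor, was at 80.4, 222 and 106 CPM and then at 20.5, 55.1 and 25.2 CPM (log2 -2.03 ± 0.43 (SE), adjusted p = 0.0196), and missed the threshold without replicate 2 of the 4 week group or replicate 1 or 3 of the 16 week group (adjusted p up to 0.131). Of 17 chemokine receptor and egress genes tested, these 3 fell and none rose. The median of that list was -0.06 and turned to 0.02 with scaling by library totals.

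The IL-33 receptor and the effector markers moved the same way. Il1rl1, which encodes ST2 (chr1:40429570-40465415, plus strand), was at 904, 905 and 922 CPM after 4 weeks and at 279, 337 and 330 CPM after 16 weeks. All 3 libraries of the longer diet lay near a common low level (log2 -1.53 ± 0.34 (SE), adjusted p = 0.0218). Klrg1, an inhibitory receptor of differentiated effector Tregs, was at 1533, 1369 and 1318 CPM and then at 340, 591 and 411 CPM (log2 -1.65 ± 0.30 (SE), adjusted p = 0.00683). Il9r, the interleukin 9 receptor, was at 73.0, 72.8 and 69.8 CPM and then at 19.4, 33.2 and 18.9 CPM (log2 -1.60 ± 0.28 (SE), adjusted p = 0.00560). No library of one group entered the range of the other for these genes. Pparg, the nuclear receptor that governs fat Treg identity, was at 67.0, 51.0 and 55.5 CPM and then at 7.33, 26.6 and 13.6 CPM (log2 -1.87 ± 0.45 (SE), adjusted p = 0.0366). Its 16 week libraries were spread over a wide range below the 4 week ones. Ltb4r1, the leukotriene B4 receptor, fell by 1.85 on the log2 scale and Irf4, a transcription factor of effector Tregs, by 0.91 (adjusted p = 0.0151 and 0.0279). Without replicate 1 of the 16 week group, Ccr2 and Ccr3 were the 2 calls left in the list (adjusted p for Klrg1 0.0653, Il9r 0.0578, Il1rl1 0.134, Pparg 0.205), while the list's median was -0.79. The list held 4, 5 and 4 falls without replicates 1 and 3 of the 4 week group and replicate 3 of the 16 week group. Il1rl1, Pparg and Irf4 each kept the call in 1 of the 6 fits that left out a library, Ltb4r1 in 3, and Klrg1 and Il9r each in 5. Pparg also missed the threshold with scaling by library totals.

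**Figure D2:**
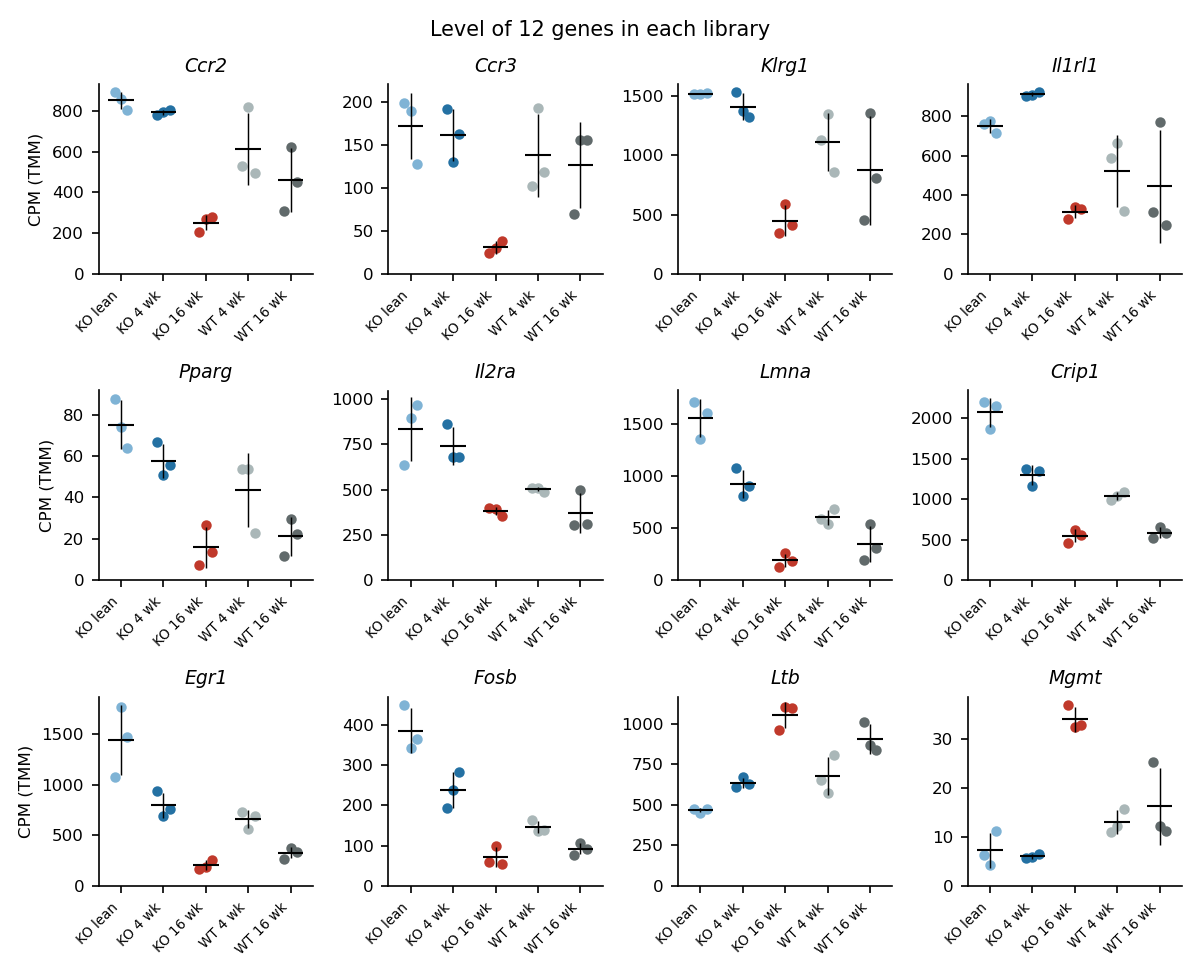
Level of 12 genes in CPM (linear axes from 0) in each library of KO cells on lean diet and after 4 and 16 weeks of high fat diet and of WT cells after 4 and 16 weeks; points are libraries, horizontal bars means and vertical lines 1 SD (n = 3). In 10 of the panels the 16 week KO libraries (red) all lie below the 4 week ones (dark blue), and for Ltb and Mgmt they all lie above them.

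S100, annexin and cytoskeletal genes, which are typical of effector and tissue T cells, formed the list with the most calls. Of 23 tested 13 fell, beside 1.25% of all genes tested, and none rose. The median log2 fold change was -0.55 in KO cells and -0.42 in WT cells, where all 23 members were negative and none passed the test. Lmna, encoding lamin A/C of the nuclear envelope (chr3:88480147-88509956, minus strand), was at 1076, 811 and 903 CPM after 4 weeks and at 129, 258 and 178 CPM after 16 weeks. The groups were several-fold apart (log2 -2.30 ± 0.34 (SE), adjusted p = 0.00205). Crip1, a small LIM protein, was at 1378, 1157 and 1350 CPM and then at 460, 621 and 551 CPM (log2 -1.25 ± 0.17 (SE), adjusted p = 0.000701). Anxa1, annexin A1, was at 493, 655 and 536 CPM and then at 78.4, 169 and 117 CPM (log2 -2.21 ± 0.41 (SE), adjusted p = 0.00772). For all of these the 2 groups did not overlap. Vim, vimentin of the intermediate filaments, was at 4127, 4007 and 3781 CPM and then at 1501, 1805 and 1620 CPM, and fell by 1.27 on the log2 scale (adjusted p = 0.00772). The galectins Lgals3 and Lgals1 fell by 1.97 and 1.10 (adjusted p = 0.00310 and 0.00230), and the large scaffold gene Ahnak and the actin-binding gene Tagln2 by 1.05 and 0.97 (adjusted p = 0.00316 and 0.00226). S100a4, S100a6, S100a10 and S100a11, small calcium-binding proteins, fell by 1.28, 1.15, 0.55 and 0.59, and Emp3, a membrane protein, by 0.54. Vim, the 4 S100 genes and Emp3 are beyond the 6 members of the list with the smallest p and were named after their values were seen. Lmna, Crip1, Tagln2, Lgals1, Lgals3 and Ahnak passed the test with each of the 6 libraries left out. They were also the 6 calls left without replicate 1 of the 16 week group, where the list's median stayed at -0.55. The list held 8 falls without replicate 1 or 3 of the 4 week group. With scaling by library totals 10 members fell.

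Immediate early genes, transcribed within minutes of receptor signalling, held 9 falls among 31 tested, beside 1.25% of all genes tested, and no rise. The list's median was -0.48 in KO cells and -0.06 in WT cells. Egr1, a zinc finger factor induced by antigen receptor signals, was at 938, 693 and 757 CPM after 4 weeks and at 172, 188 and 259 CPM after 16 weeks (log2 -1.95 ± 0.27 (SE), adjusted p = 0.000932). Fosb, a subunit of AP-1, was at 193, 238 and 283 CPM and then at 59.0, 99.5 and 54.1 CPM (log2 -1.75 ± 0.23 (SE), adjusted p = 0.000701). The ranges of the groups lay apart for both, and both calls held with each library left out. Fos, another AP-1 subunit, was at 2430, 1744 and 1755 CPM and then at 760, 930 and 813 CPM, and fell by 1.24 on the log2 scale (adjusted p = 0.00683). Zfp36, which promotes decay of cytokine mRNAs, fell by 1.38, Ier2 by 1.34, Atf3 by 1.97, Cd69, the early activation and tissue retention marker, by 0.91, the phosphatase gene Dusp5 by 0.76 and the antiproliferative gene Btg2 by 0.59, of which Atf3 and Dusp5 were named after their values were seen. Without replicate 1 of the 16 week group, Egr1 and Fosb were the 2 calls left in the list and Fos, Zfp36 and Cd69 had adjusted p of 0.0617, 0.0680 and 0.0617; the median was -0.46. The list held 5 falls without replicate 1 or 3 of the 4 week group. Of the 21 p53 target genes tested, 3 fell, Cdkn1a, Gadd45b and Btg2. Cdkn1a, encoding the cell cycle inhibitor p21, fell by 1.21 (adjusted p = 0.00316) and held with each library left out. Gadd45b fell by 1.05 (adjusted p = 0.0157; 0.101 without replicate 1 of the 16 week group, and missed also without replicate 1 or 3 of the 4 week group or 3 of the 16 week group).

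**Figure D3:**
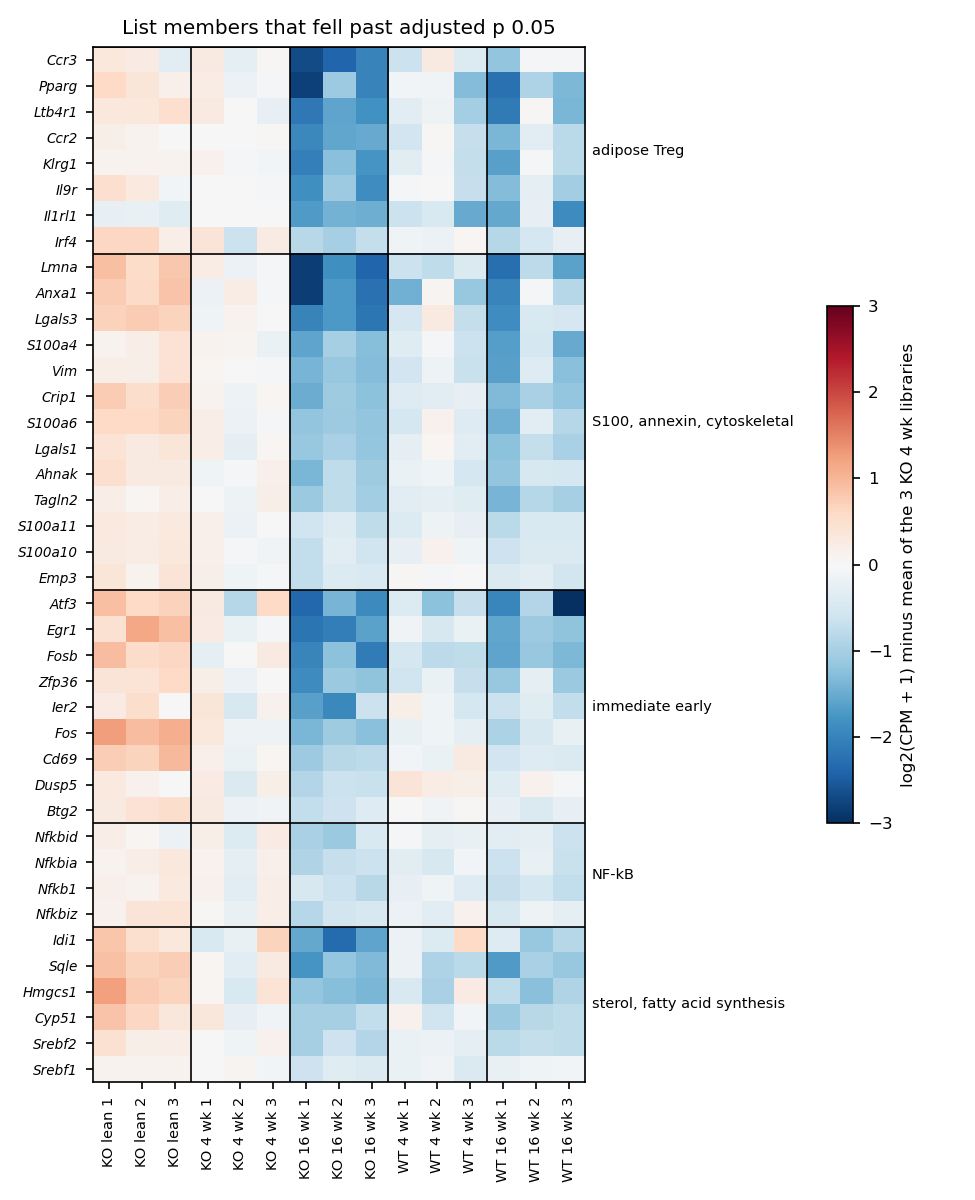
Heat map of 40 genes from 5 lists that fell past adjusted p 0.05 in KO Tregs, in 15 libraries; colour is log2(CPM + 1) minus the mean of the 3 KO libraries after 4 weeks, red for higher and blue for lower. Each gene is blue in the 3 KO libraries after 16 weeks, WT libraries after 16 weeks vary from replicate to replicate, and many immediate early and sterol genes are highest in the KO lean libraries.

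Cytokine and chemokine genes were among those with the greatest falls. Il5, the eosinophil growth factor (chr11:53720794-53725106, plus strand), was at 125, 68.9 and 92.6 CPM after 4 weeks and at 11.7, 6.94 and 12.3 CPM after 16 weeks (log2 -3.19 ± 0.58 (SE), adjusted p = 0.00683). Cxcl2, a neutrophil attractant (chr5:90903871-90905938, plus strand), was at 365, 569 and 371 CPM and then at 69.7, 49.7 and 83.6 CPM (log2 -2.68 ± 0.50 (SE), adjusted p = 0.00795). Cxcl3, its close relative, was at 39.7, 56.3 and 24.3 CPM and then at 1.47, 7.71 and 6.30 CPM (log2 -2.95 ± 0.65 (SE), adjusted p = 0.0218). All 3 genes were named by a rule that asks for separate ranges. All 3 missed the threshold without replicate 1 of the 16 week group (adjusted p = 0.0553, 0.0617 and 0.140). Cxcl3 also missed it without replicate 1 or 2 of the 4 week group or replicate 3 of the 16 week group. Reads of Cxcl2 and Cxcl3, which are similar in sequence, may have been split by the counting. Il5 was the 1 call among 10 T helper effector genes tested. Of 21 genes of the NF-kB system, which relays antigen receptor and cytokine signals, 4 fell, the subunit gene Nfkb1 by 0.67 and the inhibitor genes Nfkbia, Nfkbid and Nfkbiz by 0.75, 0.85 and 0.62 on the log2 scale (adjusted p = 0.0294, 0.0218, 0.0281 and 0.0410). The list's median was -0.06, and 0.02 with scaling by library totals, where Nfkb1 missed the threshold. None of these 4 calls was left without replicate 1 or 3 of the 4 week group or replicate 1 or 2 of the 16 week group, and 1 was left without replicate 3 of the 16 week group.

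The window of 250 bases upstream of the Cxcl2 start in RefSeq (GRCm38.p6) is shown because it holds a kB motif, the letters bound by NF-kB, here in capitals. The letters GGANTTTCC were searched on both strands and occur in 1.07% of 32851 windows of this length and in 1.12% of windows of the genes tested. Among the 146 genes that fell, 107 had a window and 7 of these held the motif: Anxa1, Ccr3, Cxcl2, Cxcl3, Cyth2, Myadm and Nfkbia. Counted by gene as well, 8787 of the genes tested had a window and 123 of these held the motif. A match of letters describes the sequence and shows no binding. The window lies at chr5:90903649-90903898, plus strand, and the match begins 96 bases upstream of the start.
Cxcl2: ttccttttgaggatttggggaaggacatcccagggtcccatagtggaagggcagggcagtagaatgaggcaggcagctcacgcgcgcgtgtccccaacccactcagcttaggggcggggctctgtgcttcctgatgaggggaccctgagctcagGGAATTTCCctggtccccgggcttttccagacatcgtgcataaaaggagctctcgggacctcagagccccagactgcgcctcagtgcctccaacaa

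Il2ra, which encodes the high affinity chain CD25 of the IL-2 receptor (chr2:11642807-11693193, plus strand), was at 864, 678 and 682 CPM after 4 weeks and at 397, 391 and 356 CPM after 16 weeks. The groups were well apart (log2 -0.96 ± 0.18 (SE), adjusted p = 0.00772). Il2ra was also the 1 fall among 16 core Treg genes tested, in which Izumo1r, the folate receptor 4 gene, was the 1 rise: it was at 236, 280 and 216 CPM and then at 681, 412 and 565 CPM (log2 1.18 ± 0.26 (SE), adjusted p = 0.0218). Cish and Socs2, feedback inhibitors of cytokine signalling, fell by 0.76 and 0.90 on the log2 scale and the kinase gene Pim1 by 1.45 (adjusted p = 0.0151, 0.00683 and 0.0305); these 3 were chosen after their values were seen. Bcl2l1, encoding the survival protein BCL-XL, was the 1 call among 22 survival and death genes (log2 -0.75, adjusted p = 0.0218). Ccnd2, encoding cyclin D2, was at 1050, 1147 and 1077 CPM and then at 677, 680 and 710 CPM (log2 -0.66 ± 0.11 (SE), adjusted p = 0.00339), and held with each library left out. Without replicate 1 of the 16 week group, Il2ra, Izumo1r, Cish, Socs2, Pim1 and Bcl2l1 missed the threshold, with adjusted p of 0.0502 for Il2ra and 0.0653 for Socs2. Il2ra missed it as well without replicate 1 of the 4 week group (adjusted p = 0.0536). Izumo1r, Pim1 and Bcl2l1 each kept the call in 2 of the 6 fits that left out a library, and Cish in 3.

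Among single genes outside these lists, Sh3bp4, which encodes an endocytic adaptor and had the smallest adjusted p of the comparison (chr1:89070415-89155068, plus strand), was at 49.4, 59.6 and 60.6 CPM after 4 weeks and at 8.06, 6.94 and 11.3 CPM after 16 weeks. The difference was many times the spread within groups (log2 -2.67 ± 0.29 (SE), adjusted p = 0.000179, and at most 0.00519 with a library left out). Egln3, an oxygen-sensing prolyl hydroxylase gene and the 1 fall among 29 glycolysis and hypoxia genes, was at 43.0, 43.0 and 39.7 CPM and then at 12.1, 7.32 and 3.32 CPM (log2 -2.47 ± 0.43 (SE), adjusted p = 0.00560). Hif1a, the hypoxia factor whose protein such hydroxylases mark for decay, was the 1 rise in that list, at 437, 347 and 386 CPM and then at 756, 562 and 499 CPM (log2 0.64, adjusted p = 0.0417). Hif1a missed the threshold in 5 of the 6 fits that left out a library, with adjusted p up to 0.268. Furin, a proprotein convertase gene that Tregs use to mature TGF-beta, was at 556, 223 and 502 CPM and then at 114, 119 and 110 CPM (log2 -1.89 ± 0.27 (SE), adjusted p = 0.00134). It was chosen after its values were seen, and Gm44851, annotated on the other strand within the same stretch of chromosome 7, fell too, which counting without strand cannot separate. Dyrk3, a kinase gene, had 94 counts over the 4 week libraries and 3 over the 16 week libraries, a ratio of 31.1 between totals (95% counting interval 10.3 to 153), and its 4 week values of 19.1, 4.64 and 10.7 CPM were uneven. Dyrk3 missed the threshold in 5 of the 6 fits that left out a library, with adjusted p up to 0.144. The leukotriene receptor gene Cysltr1 (log2 -2.24, adjusted p = 0.0356) and the mitochondrial tRNA ligase gene Yars2 (log2 -2.59, adjusted p = 0.0383) also fell, with adjusted p up to 0.147 and 0.203 when a library was left out.

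Sterol synthesis genes fell in 8 of 31 cases, beside 1.25% of all genes tested, and rose in none. They include Srebf1 and Srebf2, the SREBP factors that drive the pathway, and the enzymes Hmgcs1, Idi1, Sqle and Cyp51. The list's median was -0.47 in KO cells and -0.48 in WT cells, where none passed the test. Srebf2 was at 294, 270 and 324 CPM and then at 147, 193 and 161 CPM (log2 -0.82 ± 0.13 (SE), adjusted p = 0.00310). Its 16 week libraries lay below all 4 week ones, and the call held with each library left out. Hmgcs1, the enzyme before the rate-limiting step, was at 105, 72.8 and 133 CPM and then at 44.7, 40.9 and 38.5 CPM (log2 -1.33 ± 0.26 (SE), adjusted p = 0.0129). Sqle, squalene epoxidase, fell by 1.45, Cyp51 by 0.93 and Srebf1 by 0.47 on the log2 scale, and Idi1 reached at most 6.98 CPM; Srebf1 and Idi1 were named after their values were seen. Without replicate 1 of the 16 week group 3 calls were left and the median was -0.46. The list held 5, 4, 6 and 4 falls without replicates 1 and 3 of the 4 week group and replicates 2 and 3 of the 16 week group. Srebf1 lost its call in each fit that left out a library, with scaling by library totals, without the filter on low counts and with only the compared libraries fitted (adjusted p up to 0.208).

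The window upstream of Hmgcs1 is shown because it holds a sterol response element, the letters bound by SREBP, in capitals. The letters TCACCNCAC were searched on both strands and occur in 1.11% of the 32851 windows. Of the 8 sterol genes that fell, 5 had a window and Hmgcs1 alone among these held the letters. Counted by gene as well, 110 of the 8787 genes tested with a window held the letters. The window lies at chr13:119690101-119690350, plus strand, and the match begins 137 bases upstream of the RefSeq start.
Hmgcs1: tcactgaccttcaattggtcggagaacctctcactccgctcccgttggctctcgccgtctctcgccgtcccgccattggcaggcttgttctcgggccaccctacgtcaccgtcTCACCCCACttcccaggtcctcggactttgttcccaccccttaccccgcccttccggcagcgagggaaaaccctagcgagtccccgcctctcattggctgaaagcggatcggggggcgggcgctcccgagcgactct

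The genes that rose were fewer and more mixed. Mgmt, which repairs alkylated guanine in DNA (chr7:136894614-137130266, plus strand), was at 5.61, 5.96 and 6.61 CPM after 4 weeks and at 37.0, 32.4 and 32.8 CPM after 16 weeks. Both groups were tight and far apart (log2 2.48 ± 0.42 (SE), adjusted p = 0.00414). Ttn, the titin gene, was at 107, 136 and 162 CPM and then at 412, 402 and 418 CPM (log2 1.60 ± 0.27 (SE), adjusted p = 0.00414). Mgmt and Ttn held with each library left out. The lymphotoxin genes Ltb and Lta, TNF family ligands of lymphoid tissue organization, were the 2 rises among 20 TNF superfamily genes tested. Ltb was at 610, 670 and 628 CPM and then at 963, 1102 and 1100 CPM (log2 0.73 ± 0.12 (SE), adjusted p = 0.00402). Lta was at 7.86, 9.60 and 5.51 CPM and then at 33.0, 26.6 and 23.9 CPM (log2 1.85 ± 0.47 (SE), adjusted p = 0.0475). Ltb held with each library left out, and Lta missed the threshold in all 6 of those fits, with adjusted p up to 0.194. Sh2d1a, encoding the adaptor SAP, was the 1 rise among 28 genes of proximal T cell receptor signalling (log2 1.33, adjusted p = 0.0159). Of these 28 genes 24 had a positive log2 fold change, beside 49.9% of all genes tested. Susd2, Chst15 and the ubiquitin ligase gene Rnf122 rose by 1.90, 2.16 and 1.59 on the log2 scale (adjusted p = 0.0211, 0.0472 and 0.0119). Sh2d1a, Susd2, Chst15 and Rnf122 kept the call in 2, 1, 0 and 4 of the 6 fits that left out a library, with adjusted p up to 0.103, 0.121, 0.199 and 0.0820. All 4 missed the threshold without replicate 1 of the 4 week group and without replicate 1 of the 16 week group.

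Interferon-stimulated genes, induced in antiviral defence, were described as a list. Of the 37 members tested, 36 had a positive log2 fold change, beside 49.9% of all genes tested. The list's median was 0.49, beside -0.01 in WT cells. Without replicate 1 of the 4 week group 31 members were positive and 6 negative, with a median of 0.40. The median was 0.70 without replicate 3 of the 4 week group. Of 4 more genes inducible by interferon and chosen after their values were seen, Igtp, a GTPase gene of pathogen defence, was at 153, 182 and 178 CPM and then at 319, 314 and 291 CPM (log2 0.85, adjusted p = 0.0213). Tgtp2, Serpina3g and Ube2l6 rose by 1.54, 1.55 and 0.80 (adjusted p = 0.0205, 0.0210 and 0.0366). These 4 missed the threshold without replicate 1 or 3 of either group, with adjusted p up to 0.176. Reads of Igtp, which overlaps Irgm2 in the annotation, and of Tgtp2, which has a near-identical copy, may have been assigned elsewhere.

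The window upstream of Igtp is shown because it holds the letters of an interferon-stimulated response element, bound by the factors that interferon receptors activate, in capitals. The letters GAAA followed by any 2 bases and again GAAA were searched on both strands and occur in 2.98% of the 32851 windows. In the interferon list, 18 of the 31 genes with a window held them, beside 289 of the 8787 genes tested with a window. Among the 46 genes that rose, 33 had a window and 3 of these held the letters, Cybb, Igtp and Tgtp2. The window lies at chr11:58199306-58199555, plus strand, and the match begins 34 bases upstream of the start.
Igtp: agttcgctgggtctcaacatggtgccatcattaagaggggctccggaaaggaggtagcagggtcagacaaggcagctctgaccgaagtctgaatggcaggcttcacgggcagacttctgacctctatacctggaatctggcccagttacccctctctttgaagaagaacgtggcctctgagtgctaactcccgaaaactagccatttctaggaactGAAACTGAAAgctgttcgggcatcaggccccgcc

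Clock genes changed in 3 cases. Npas2, a paralog of Clock that REV-ERB represses and ROR activates, was at 64.0, 56.0 and 62.5 CPM after 4 weeks and at 14.7, 21.2 and 11.6 CPM after 16 weeks. The groups lay far apart (log2 -1.94 ± 0.43 (SE), adjusted p = 0.0218). It was the 1 fall among 6 genes of the REV-ERB and ROR loop, whose median was -0.65. In WT cells Npas2 lay at 2.54 to 9.57 CPM after 4 weeks and at 2.84 to 5.12 CPM after 16 weeks, below every KO library. Per3, a period gene, was at 2.62, 4.97 and 7.35 CPM and then at 1.47, 0.385 and 1.33 CPM (log2 -2.16 ± 0.52 (SE), adjusted p = 0.0351). Bhlhe40, a repressor of the clock and of T cell Il10, was at 162, 109 and 219 CPM and then at 382, 373 and 365 CPM (log2 1.20 ± 0.28 (SE), adjusted p = 0.0316). Among 11 genes driven by BMAL1 and CLOCK these were the 1 fall and the 1 rise. Cry1 (log2 -0.39, adjusted p = 0.178) and Nr1d2, which reached at most 3.08 CPM (adjusted p = 0.965), did not pass the test. Npas2, Per3 and Bhlhe40 lost the call in 4, 5 and 5 of the 6 fits that left out a library, with adjusted p up to 0.127, 0.173 and 0.127. Gm3617 lies within Npas2 on the same strand, and Camta1 overlaps Per3, so reads of these pairs may be mixed.

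Other lists held few calls or none. For reference, 49.9% of all genes tested had a positive log2 fold change. Of 13 co-inhibitory receptor genes 2 fell, Klrg1 and Cd200r1 (log2 -0.94, adjusted p = 0.0475, lost in all 6 fits with a library left out), while the list's median was 0.47 and 10 members were positive. Of 31 genes of fatty acid uptake, storage and oxidation, 2 fell, Pparg among them, and Fabp4 rose, with a median of -0.13. Of 50 cell cycle genes 40 were positive, with a median of 0.31 in KO and -0.30 in WT cells, and the 1 call was the fall of Ccnd2. That median was 0.11 without replicate 1 of the 16 week group, and 0.09 without replicate 2 and 0.60 without replicate 1 of the 4 week group. No member passed the test among 10 granzyme and cytotoxic genes (median 0.84 in KO and 0.65 in WT cells), 17 genes of resting and lymphoid T cells (0.21), 16 heat shock genes (-0.08), 23 of the unfolded protein response (-0.13), 25 antioxidant genes (-0.09), 74 nuclear genes of oxidative phosphorylation (0.03), 7 mitochondrially encoded genes (0.22), 26 of the insulin and PI3K pathway (-0.08) and 78 of cytosolic ribosomal proteins (0.09). Tcf7, a factor of resting T cells, was at 55.7, 97.3 and 122 CPM and then at 179, 162 and 166 CPM, apart in range but with an adjusted p of 0.240.

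**Figure D4:**
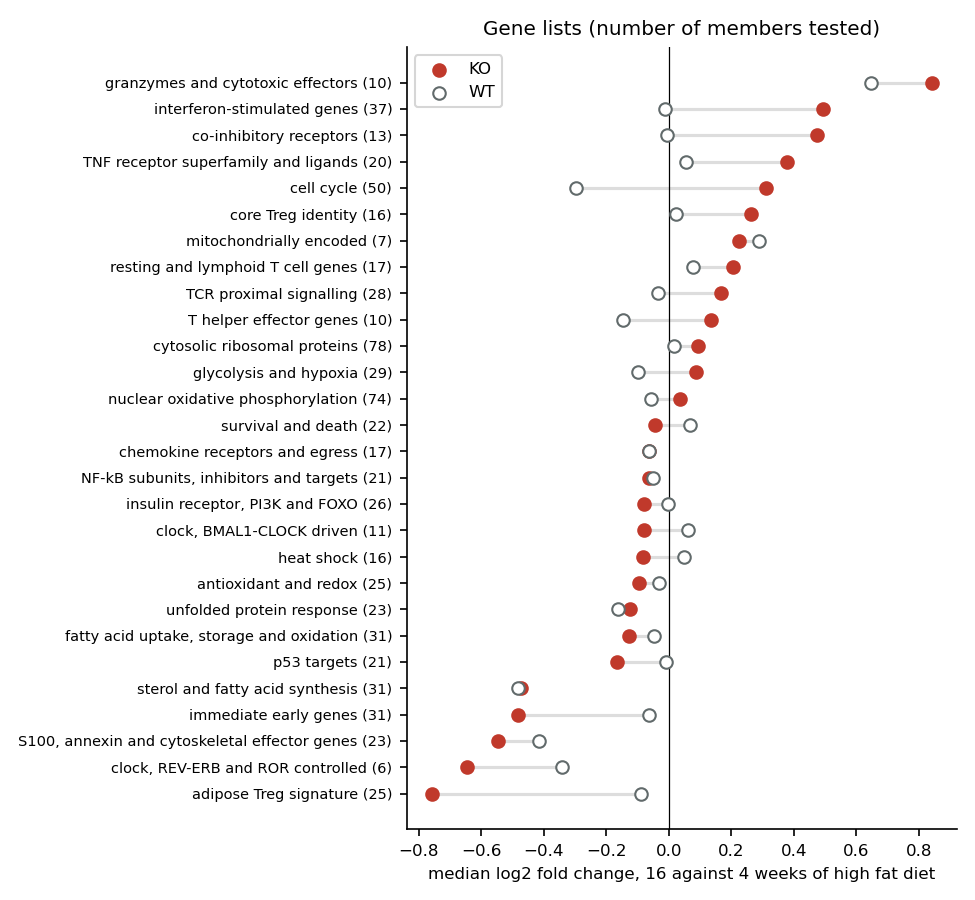
Median log2 fold change of 16 against 4 weeks of high fat diet for 28 gene lists, in KO (filled red) and WT (open grey) cells, with the number of members tested in brackets. The adipose Treg list has the lowest KO median (-0.76) with WT at -0.09, while the sterol list lies at -0.47 in KO and -0.48 in WT cells.

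Markers of other cell types were measured beside these changes. B cell markers, 14 genes, summed to 407, 536 and 442 CPM in the 4 week KO libraries and to 1325, 809 and 971 CPM in the 16 week ones, so the groups did not overlap. Ighm, the IgM heavy chain gene, named after its values were seen, made up most of this and rose by 1.22 on the log2 scale (adjusted p = 0.0182; 0.127 without replicate 1 of the 16 week group). Endothelial markers, all 10 of them higher on average after 16 weeks, summed to 117, 88.1 and 121 CPM and then to 251, 176 and 132 CPM. Stromal markers summed to 5.99, 2.98 and 9.55 CPM and then to 183, 13.5 and 11.6 CPM, and adipocyte markers to 4.86, 9.27 and 5.14 CPM and then to 68.9, 13.1 and 12.3 CPM. The first 16 week library was thus high in both, and the other 2 lay slightly above the 4 week range. The greatest rises of the comparison include such genes: Sparc, a matrix protein of stroma, was at 0, 0 and 1.47 CPM and then at 48.4, 9.64 and 6.30 CPM, Cldn5, of endothelial junctions, at 0, 0.662 and 1.47 CPM and then at 38.9, 11.2 and 5.64 CPM, and Fabp4, the lipid carrier of fat and endothelium, at 1.12, 4.30 and 3.68 CPM and then at 54.3, 9.25 and 9.95 CPM. Ncmap and Map2, genes known from glia and neurons, were at most 2.65 and 1.99 CPM after 4 weeks and at least 25.4 and 5.40 CPM after 16 weeks. Elsewhere Ncmap was not confined to 16 weeks: it lay at 15.7 to 52.8 CPM in the 6 WT libraries on high fat diet and at 16.1, 60.7 and 1.41 CPM in KO cells on the lean diet, and did not pass the test between lean diet and 16 weeks (adjusted p = 0.573). Without replicate 1 of the 16 week group all 5 missed the threshold (adjusted p = 0.268 for Sparc, 0.219 for Cldn5, 0.404 for Fabp4, 0.0748 for Ncmap and 0.202 for Map2). Sparc, Cldn5, Fabp4 and Map2 also missed it without each replicate of the 4 week group in turn and with the replicate number as a block. Ncmap missed it without replicate 1 or 3 of the 4 week group, Map2 without replicate 3 of the 16 week group and Sparc with DESeq2. Cybb, the phagocyte oxidase gene, rose by 2.10 (adjusted p = 0.0218, and 0.131 without replicate 1 of the 16 week group). Cybb missed the threshold as well without replicate 1 or 3 of the 4 week group or 3 of the 16 week group.

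Macrophage markers, 15 genes with C1qc at 0 in all 6 libraries, summed to 16.8, 24.5 and 22.8 CPM and then to 43.3, 30.5 and 24.2 CPM. Dendritic cell and class II markers, 11 genes, summed to 125, 85.4 and 62.1 CPM and then to 203, 132 and 180 CPM, and Cd74, the invariant chain gene, just missed the threshold (log2 1.67, adjusted p = 0.0509). Cytotoxic T and NK cell markers, 12 genes with Cd8a, Klra8 and Klre1 at 0, summed to 208, 376 and 192 CPM and then to 295, 372 and 383 CPM. Mesothelial and epithelial markers, 10 genes with Upk3b, Upk1b and Krt19 at 0, summed to 139, 214 and 135 CPM and then to 113, 114 and 109 CPM. Neutrophil and mast cell markers summed to at most 2.32 CPM and red blood cell markers to at most 5.64 CPM in any of the 6. Of the adipocyte list Lep, Retn and Cfd were at 0 throughout. Of these lists B cell, class II, endothelial, stromal and adipocyte sums had separate ranges, all higher after 16 weeks, and the mesothelial and epithelial sum had separate ranges and was lower. Single members differed: 5 B cell and 3 class II markers were lower on average after 16 weeks. Of the cytotoxic T and NK cell markers 6 were lower on average and 3 higher. Fabp4 made up most of the adipocyte sum at 16 weeks. Lrrn4 and Epcam made up most of the mesothelial and epithelial sum. Lrrn4 was at 51.3, 107 and 65.0 CPM and then at 34.8, 45.5 and 46.8 CPM, while the ranges of Epcam overlapped. The part of these markers in the results above was not tested. Without the library in which stromal and adipocyte markers were highest, 32 genes were called, beside 192 with it. Leaving out any other of the 6 libraries lowered the count too, and what the drop owes to these markers was not tested. B cell, class II and endothelial sums were also higher in the other 2 libraries of the 16 week group than in any of the 4 week group. Mitochondrial transcripts took 0.708 to 0.740% of counts after 4 weeks and 0.800 to 1.04% after 16 weeks, and the part of this in the results was not tested either.

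**Figure D5:**
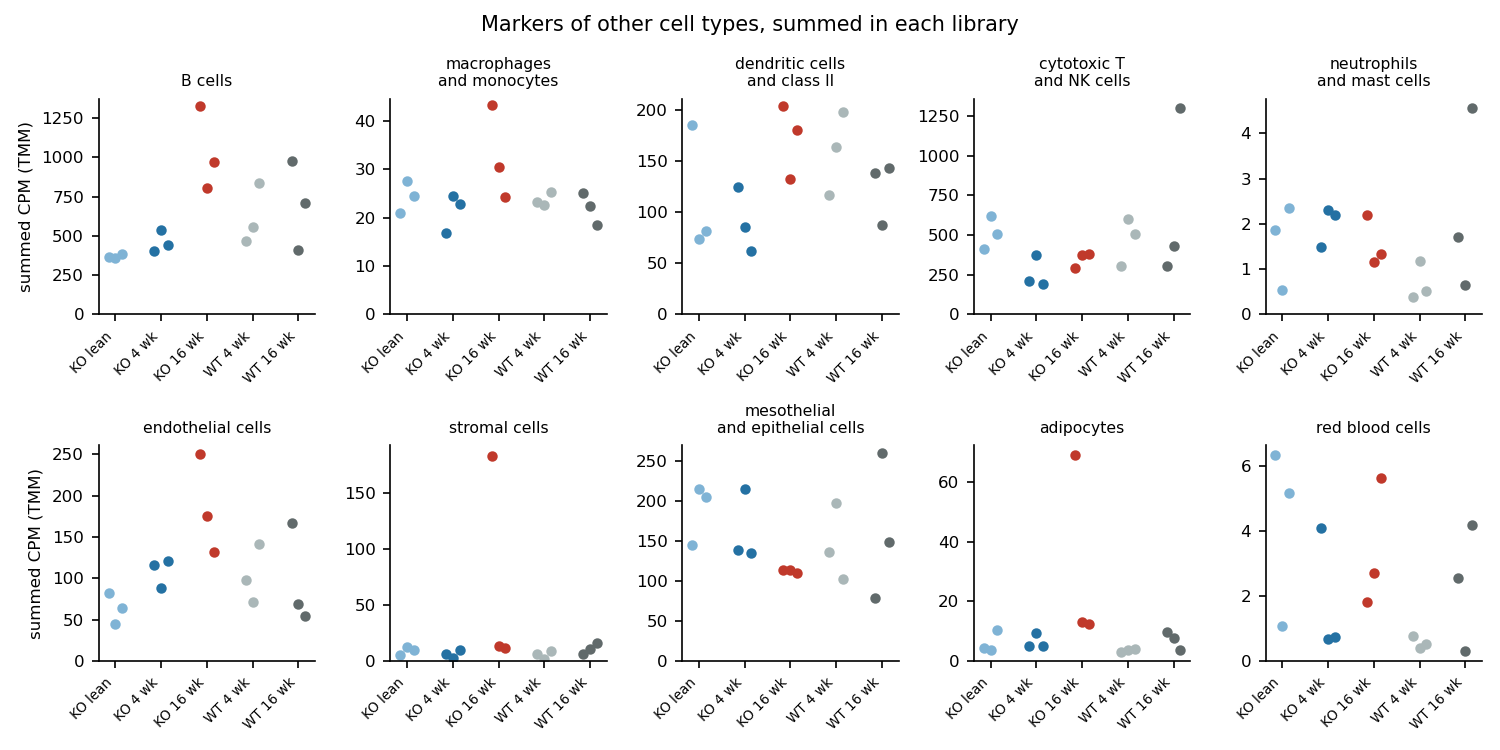
Summed level in CPM (linear axes from 0) of 10 marker lists for other cell types in each library, with groups coloured as KO lean, 4 and 16 weeks and WT 4 and 16 weeks. B cell sums are higher in all 3 KO libraries after 16 weeks, and 1 of these libraries stands apart in stromal (183) and adipocyte (68.9) markers.

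In WT cells, the same 2 diet lengths gave no gene past the threshold with edgeR (884 genes at an unadjusted p under 0.05; 27 genes with DESeq2, 7 higher and 20 lower). The 146 genes that fell in KO cells had a WT median of -0.33 and 129 of them were negative there, beside 5689 negative among all 11698. The 46 genes that rose had a WT median of 0.41 with 39 positive. WT values varied more between replicates for several of these genes. Ccr3 was at 103, 193 and 119 CPM in WT cells after 4 weeks and at 69.7, 156 and 156 CPM after 16 weeks, with overlapping ranges. Il1rl1 was at 585, 661 and 318 CPM and then at 314, 771 and 247 CPM, and Klrg1 at 1131, 1346 and 860 CPM and then at 450, 1357 and 806 CPM, so replicate 2 of the 16 week WT group lay at or above the 4 week level. Crip1 was at 991, 1040 and 1086 CPM and then at 518, 660 and 575 CPM, apart in WT cells too (log2 -0.83, adjusted p = 0.176).

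The difference between genotypes in the change was tested directly, and no gene passed with edgeR (784 genes at an unadjusted p under 0.05; 1 gene, Ccr3, with DESeq2). A change past the threshold in KO cells is thus not shown to differ from that in WT cells. The smallest adjusted p was that of Ccr3, whose change was lower in KO than in WT cells by 2.26 on the log2 scale (adjusted p = 0.249). Ccr3 passed this test with edgeR without replicate 2 of the 4 week WT group, and Ccr3, Cxcl2 and Lyn passed it without replicate 1 of the 16 week WT group. Cxcl2 and Il5 had differences of -3.30 and -3.61 and the Src family kinase gene Lyn one of -1.61 (adjusted p = 0.502 for each). Lyn itself fell in KO cells, from 135, 175 and 130 CPM to 45.8, 69.0 and 58.0 CPM (log2 -1.35, adjusted p = 0.0133, lost without replicate 1 or 3 of the 16 week group, with adjusted p up to 0.101), and had overlapping ranges in WT cells. Mynn, a zinc finger gene, had a difference of -1.05. In the other direction Prkcsh, the beta subunit of glucosidase II, Cdk5rap3, Pkp4 and Myo1f had differences of 0.74, 0.96, 1.73 and 0.57 (adjusted p = 0.502, 0.502, 0.527 and 0.571).

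KO cells on the lean diet gave a reference level for these genes. Between the lean diet and 4 weeks of high fat diet no gene passed the test with edgeR (836 genes at an unadjusted p under 0.05; 21 genes with DESeq2). Between the lean diet and 16 weeks 696 genes passed (5.95%), 420 lower (3.59%) and 276 higher (2.36%), or 297 lower and 526 higher with scaling by library totals, which moved the median of all genes by 0.12. These comparisons share libraries with that of 16 against 4 weeks, so their values are given side by side only. The genes that fell had a median of -0.16 from lean to 4 weeks and -1.31 from lean to 16 weeks, and those that rose 0.06 and 1.26. The lean and 4 week libraries overlapped for Ccr2 (892, 856 and 805 CPM in lean mice) and for Ccr3 (199, 190 and 128 CPM). For Fos the lean libraries were higher still, at 4663, 3707 and 4156 CPM, and Egr1 was at 1080, 1773 and 1477 CPM and Lmna at 1716, 1357 and 1613 CPM. In these 3 genes, singled out after their values were seen, each lean library lay above each 4 week library, which lay above each 16 week library, although none passed the test between lean diet and 4 weeks (adjusted p = 0.223 for Fos, 0.481 for Egr1 and 0.637 for Lmna). Ttn, among the genes that rose, ran the other way, at 72.8, 46.6 and 68.8 CPM in lean mice (adjusted p = 0.413 from lean to 4 weeks). Lean mice were 18 weeks old, as were the mice fed high fat diet for 4 weeks. The mice fed it for 16 weeks were 30 weeks old. Diet and age thus cannot be told apart between the lean diet and 16 weeks.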

How the data were processed

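RNA from sorted cells was converted to cDNA from poly(A) ends and sequenced on libraries made with a transposon kit that does not mark strand, with paired reads of 38 bases, per the labels' protocols. The authors deposited 1 table of raw counts for 55011 genes. It was made with STAR 2.7.3a and featureCounts on mm10, per the submitters' processing notes; no source used here gives the annotation, the counting options or the featureCounts version.

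The 18 diet libraries (6 groups of 3; 1955940 to 3467019 counts each) were fitted together in edgeR 4.0.16 (R 4.3.3) with TMM factors and filterByExpr (minimum count 10, 11698 genes kept), and each contrast was tested with the quasi-likelihood F test and Benjamini-Hochberg adjustment at 0.05. The other 4 libraries, from adoptive transfer, were not used. SE values come from the moderated F statistic. No 2 replicates agreed within counting noise. On counts simulated for this comparison (11499 genes), 98, 78, 70 and 100% of genes changed by -2, -1, 1 and 2 on the log2 scale were called, with 11 false calls. The changed genes were drawn from the more highly expressed genes only, so these shares do not cover genes at low CPM.

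Named genes are Arntl, up to 12 called genes per direction with the greatest change and separate ranges whose higher group averages 5 CPM or more, up to 6 called members per list by p, the 5 smallest p per direction for the genotype difference, and fixed clock and identity genes; others are marked. The members and lists were chosen with earlier results of these data known. Gene positions come from GENCODE M21 and promoter windows from RefSeq; 107 of 146 and 33 of 46 called genes matched a window. Alternatives were DESeq2 1.42.0, RLE factors, library totals, other count filters, a replicate block, only the compared libraries, and each library left out. Some genes that the rule names are not reported here.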

Additional observations from a re-analysis of the deposited data

How the results depend on the processing

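The 192 calls between 16 and 4 weeks in KO cells became 638 without a filter on low counts, 346 with DESeq2 (191 of the 192 among them) and 376 with only the 6 compared libraries fitted (181 among them), and 32 to 175 when a library was left out. RLE factors gave 187, library totals 191 and a minimum count of 30 gave 212. With the replicate number as a block the count was 193, with 171 shared. Same-numbered KO libraries deviated together with correlations of 0.0707, 0.0680 and 0.0672, each best with its own number, which is too weak to treat the numbers as pairs. In WT cells the 0 calls became 96 without the filter and 27 with DESeq2, and 0 to 3 with a library left out (Nhsl2, Gzmb, or Gpm6b, Ptger2 and Smpd5, chosen after their values were seen). The genotype difference gave 211 without the filter, 1 with DESeq2 and 0 to 3 with a library left out. Between lean diet and 4 weeks the 0 became 112, 21 with DESeq2 and 15 with only the compared libraries, and 0 with any library left out. Between lean diet and 16 weeks the 696 became 1085 without the filter, 968 with DESeq2, 897 with only the compared libraries and 373 to 514 with a library left out. Of 95 named genes past the threshold, 80 passed in every alternative that kept all libraries and 24 in every alternative run. No named gene changed direction where it passed the threshold in the main fit or in the alternative. Changes of sign in named genes that passed in neither were not counted. At about 1 CPM for 3 counts, genes below a few CPM are measured with little precision.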

Other observations

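Other genes that changed between 16 and 4 weeks in KO Tregs, chosen after their values were seen, include surface and lipid genes. Cd44, the hyaluronan receptor of antigen-experienced T cells, was at 903, 841 and 781 CPM after 4 weeks and at 375, 495 and 383 CPM after 16 weeks (log2 -1.01 ± 0.22 (SE), adjusted p = 0.0218, edgeR), with separate ranges. Its adjusted p rose to at most 0.135 with a library left out. Myadm, encoding a membrane raft protein, was at 494, 416 and 502 CPM and then at 59.0, 149 and 97.5 CPM (log2 -2.21 ± 0.36 (SE), adjusted p = 0.00392). Zswim4, a zinc finger gene, fell by 1.22 on the log2 scale (SE 0.21, adjusted p = 0.00441). Myadm and Zswim4 passed the test with each of the 6 libraries left out. Abcg1, a cholesterol efflux pump gene, rose while sterol synthesis genes fell: it was at 90.9, 102 and 81.2 CPM and then at 158, 147 and 172 CPM (log2 0.80 ± 0.15 (SE), adjusted p = 0.00957). It missed the threshold without replicate 3 of the 4 week group (adjusted p = 0.0629) and without replicate 1 of the 16 week group. Ptger2, a prostaglandin E2 receptor gene, was at 67.0, 69.5 and 81.9 CPM and then at 127, 113 and 156 CPM (log2 0.86 ± 0.21 (SE), adjusted p = 0.0453), and missed the threshold in all 6 fits that left out a library.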
